A study of Mus musculus with 98 samples.

Results

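The 10 genes described here encode tau, the other large microtubule-associated proteins of neurons and a group of kinases that act on tau. They are Mapt (tau), Map2, Map1a, Map1b, Map4, Gsk3a, Gsk3b, Cdk5, Cdk5r1 and Mark1. They were chosen by name, with earlier results of these data known. All 10 have an entry in each of the 6 deposited count tables, which list 55367 gene entries in 4 tables and 25239 in the other 2. Levels are given as CPM (a gene's counts scaled to the total of its library, with TMM factors) or its log2.

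RNA sequencing was done on 98 mouse libraries in 22 groups, in a study that raised ACSS2, which turns acetate into acetyl-CoA. Primary embryonic hippocampal neurons of CD1 mice received a PhP.eB virus on day 5 in culture, either one for ACSS2 upregulation (upACSS2) or the vector, for 48 hours. On day 7 they received hAD-tau, the labels' name for the tau material, or PBS. Unstimulated neurons were collected on day 9 or day 21, giving 8 groups of 3 libraries, and 4 more groups of 3 were stimulated and collected on day 21. The agent of stimulation and the strain of the stimulated neurons are not given in the sources used here. A separate culture without virus was collected on day 21, with 4 libraries after hAD-tau and 3 after PBS.

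The mice were male and were given either virus retro-orbitally. The dose was 1.5e+11 units in the aged mice, 1.2e+11 at 10 months and 1.5e+10 in PS19 mice. Virus comparisons of these sets thus differ in dose. Aged C57BL6 mice gave whole hippocampus, with 12 libraries for each virus. Their labels give an age of 22-23 months, while the protocol gives injection at 21-22 months and collection after 2 months, so these ages do not add up, and the group is called by its labelled age here. C57BL6 mice of 10 months gave dorsal hippocampus 2 weeks after injection, with 6 upACSS2 and 5 vector libraries. PS19 mice, a line transgenic for mutant human tau, were injected at 2.5 months and examined 1 month later, at 3.5 months of age, or 6 months later, at 8.5 to 9 months. Each of their 4 groups has 5 libraries. Their tissue was dorsal hippocampus, except that the 1-month upACSS2 group is labelled whole hippocampus, so virus, time and tissue cannot be told apart in comparisons with that group. All mice were killed 30 minutes after a fear conditioning session or a recall session, so no group rested. The labels do not say whether neuron replicates are separate cultures, so p-values measure only the spread between these libraries.

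Tau binds along microtubules, mainly in axons, and is the protein that forms tangles in Alzheimer's disease. MAP2 occupies dendrites and cell bodies, MAP1B is the form of growing axons, MAP1A takes over in mature neurons, and MAP4 is found in most cell types. GSK-3α, GSK-3β, CDK5 with its activator p35 (from Cdk5r1) and MARK1 can all phosphorylate tau, which lowers its hold on microtubules. The counts here are of RNA, so they hold nothing on phosphorylation, cleavage or aggregation of tau protein. Added hAD-tau is protein and has no transcript in these tables. PS19 mice make mutant human tau from a transgene driven by the mouse prion promoter. Counts listed under mouse Mapt are not a measure of that transgene: the tables used here list mouse genes, and whether human tau reads were placed at Mapt is not given in the sources used here.

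Promoter sequence is shown for 3 of the 4 genes with the deepest fall between day 9 and day 21 of culture, as these genes moved together. RefSeq's promoter table for GRCm38.p6 matched 7 of the 10 genes. Capitals mark GGGCGG or CCGCCC, the GC box letters that factors of the Sp family can bind, searched on both strands with no overlap between matches. The Map1b window lies at chr13:99516603-99516852 on the minus strand, the Map2 window at chr1:66175079-66175272 on the plus strand, trimmed before the annotated gene start, and the Gsk3b window at chr16:38088751-38089000 on the plus strand.
Map1b: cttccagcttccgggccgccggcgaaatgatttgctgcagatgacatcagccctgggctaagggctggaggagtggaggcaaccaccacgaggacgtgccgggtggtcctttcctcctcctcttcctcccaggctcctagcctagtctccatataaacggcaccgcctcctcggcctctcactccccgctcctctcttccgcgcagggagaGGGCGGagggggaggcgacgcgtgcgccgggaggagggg
Map2: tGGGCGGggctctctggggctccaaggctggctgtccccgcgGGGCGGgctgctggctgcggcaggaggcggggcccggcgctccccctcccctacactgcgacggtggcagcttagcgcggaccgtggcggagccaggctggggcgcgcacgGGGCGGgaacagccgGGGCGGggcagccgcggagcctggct
Gsk3b: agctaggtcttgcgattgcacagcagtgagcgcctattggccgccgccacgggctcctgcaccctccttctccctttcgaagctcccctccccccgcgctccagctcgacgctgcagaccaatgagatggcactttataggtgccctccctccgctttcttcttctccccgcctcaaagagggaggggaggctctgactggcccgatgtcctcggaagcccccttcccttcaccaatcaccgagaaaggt
The Map2 window of 194 bases holds 4 matches, the Map1b window of 250 bases holds 1 and the Gsk3b window of 250 bases holds 0. Of all 32851 windows of 250 bases in the table, 10756 (32.74%) hold at least 1 match, and 6 of the 7 genes with an entry do in some window. A match is a description of the sequence, not a bound site. Any part of these letters in the fall of the 3 genes was not tested.

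In GENCODE's annotation of GRCm38, Mapt spans 104231390 to 104332090 on chromosome 11, Map1a 121289600 to 121310832 on chromosome 2 and Map1b 99421446 to 99516540 on chromosome 13. Map2 spans 66175273 to 66442583 on chromosome 1, Map4 109931460 to 110083955 on chromosome 9 and Mark1 184896789 to 184999570 on chromosome 1. Gsk3a spans 25228258 to 25237851 on chromosome 7, Gsk3b 38089001 to 38246084 on chromosome 16, Cdk5 24418241 to 24423530 on chromosome 5 and Cdk5r1 80477023 to 80481184 on chromosome 11. Exons of 3 of them overlap a gene on the opposite strand: Map1a shares 272 bases with Ppip5k1, Map2 124 with Gm10558 and Gsk3a 820 with 9130221H12Rik. Whether counting used strand is not given in the sources used here, so reads in those bases could come from either gene.

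Depth ran from 5075099 to 39985460 counts per library. Acss2, the gene the virus carries, checked the labels: it lay at 1488 to 5462 CPM in the upACSS2 neurons and 40.1 to 57.9 in the vector neurons. In the mice it separated the groups only at 10 months, at 49.9 to 59.3 CPM against 42.3 to 48.8. The groups overlapped at 22-23 months (46.7 to 61.5 against 40.0 to 53.7), in PS19 mice at 1 month (60.1 to 1465 against 51.5 to 66.3) and in PS19 mice at 6 months (44.9 to 237 against 43.1 to 56.0). Neuron markers were present in every library, with none at 0, and their summed level was 1382 to 4943 CPM in the culture without virus, 3317 to 7002 in the other neurons and 4234 to 7723 in the mice. Astrocyte markers were present as well, up to 18908 CPM in 1 day 21 library. In 3 day 21 libraries Rn45s, a ribosomal RNA entry, took 4.10 to 10.98% of counts, against 0.418 to 1.89% in the other 9.

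Of the 23 comparisons made, the largest changes in these genes were between day 9 and day 21 of culture. Mapt was 5.88-fold lower on day 21 in neurons with vector and PBS, Map1b 4.11-fold, Gsk3b 2.20-fold and Map2 2.15-fold. With edgeR's quasi-likelihood test and Benjamini-Hochberg adjustment, 10 of the 10 genes were lower in that condition, where 27.1% of 14863 genes tested were called lower. The count was 8 of 10 with vector and hAD-tau (background 24.9%), 8 of 10 with upACSS2 and PBS (25.8%) and 8 of 10 with upACSS2 and hAD-tau (26.4%). No gene of the 10 was higher. Their median log2 fold change was -0.73, -0.64, -0.58 and -0.53 in the 4 conditions, against 0.05, 0.04, 0.03 and 0.01 over all genes tested.

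Mapt had the deepest fall. On day 9 the vector libraries with PBS held 2429, 2542 and 2454 CPM and on day 21 they held 468, 400 and 395. With vector and hAD-tau, Mapt held 2491, 2636 and 2433 CPM on day 9 and 502, 446 and 461 on day 21. With upACSS2 it went from 2653, 2765 and 2676 to 445, 467 and 462 CPM after PBS, and from 2374, 2450 and 2295 to 464, 460 and 403 after hAD-tau. Every day 9 library lay more than 4 times above every day 21 library, in all 4 conditions. Mapt fell by 2.56 (SE 0.084) on the log2 scale with vector and PBS, with an adjusted p of 4.71e-15 by edgeR, and the other 3 log2 fold changes were -2.42, -2.56 and -2.42.

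**Figure D1:**
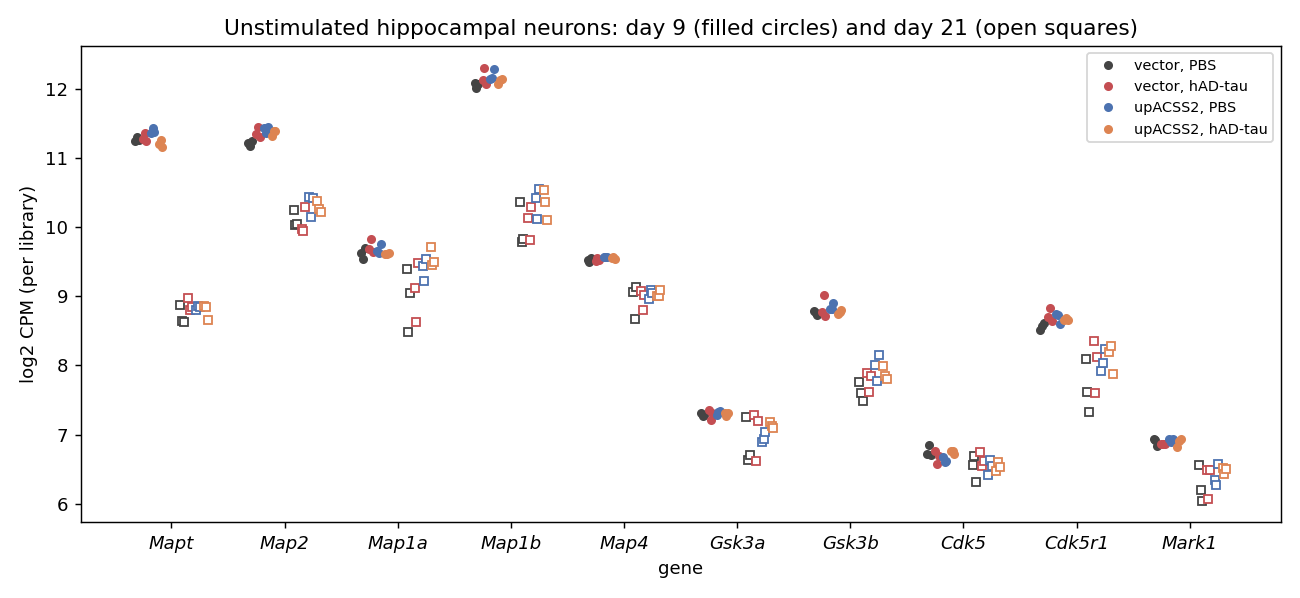
Level of each gene in the 24 unstimulated neuron libraries, as log2 CPM, with day 9 as filled circles and day 21 as open squares and 1 colour for each virus and treatment. The day 9 and day 21 points of Mapt, Map2, Map1b and Gsk3b do not overlap, while those of Cdk5 do.

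Among the other structural proteins, Map1b, the growing-axon form, held 4356, 4162 and 4307 CPM with vector and PBS on day 9. It reached 1327, 883 and 911 CPM on day 21. The days did not overlap, and Map1b fell by 2.04 (SE 0.155) on the log2 scale (adjusted p 1.39e-09, edgeR). Map2, the dendritic protein, went from 2400, 2317 and 2441 CPM to 1222, 1049 and 1064, again with no overlap, and fell by 1.10 (SE 0.0998). The log2 fold changes in the other 3 conditions were -2.08, -1.83 and -1.77 for Map1b and -1.29, -1.08 and -1.08 for Map2.

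Map4, the widely expressed member, moved less: it held 724 to 764 CPM over the 12 day 9 libraries and 407 to 562 over the 12 day 21 libraries. Its log2 fold change was near constant, at -0.56, -0.56, -0.54 and -0.52. Map1a, the mature-neuron form, passed the test in 2 of the 4 conditions. With vector and PBS it held 793, 749 and 833 CPM on day 9 and 673, 360 and 528 on day 21, so the day 21 libraries were spread widely but all lower. It fell by 0.61 (SE 0.179) there and by 0.61 with vector and hAD-tau. With upACSS2 it did not pass the test, with log2 fold changes of -0.27 after PBS (adjusted p 0.201, edgeR) and -0.06 after hAD-tau (adjusted p 0.804). Whether the virus changed the fall was not tested.

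**Figure D2:**
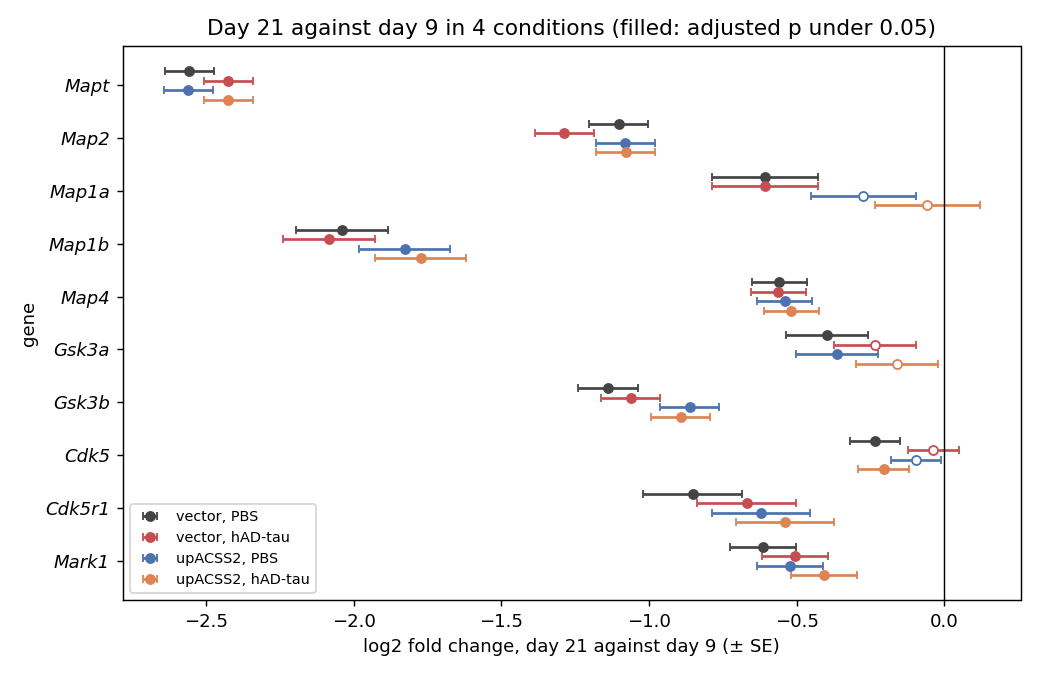
Log2 fold change of each gene on day 21 against day 9, with its SE, in the 4 conditions of unstimulated neurons; filled points passed an adjusted p of 0.05 in edgeR's test. Mapt lies between -2.56 and -2.42, and the open points are those of Map1a, Gsk3a and Cdk5 that did not pass.

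Among the kinases, Gsk3b, which encodes a main tau kinase, stood apart. It held 442, 434 and 424 CPM on day 9 and 216, 195 and 180 on day 21 with vector and PBS, with no overlap, and fell by 1.14 (SE 0.10) on the log2 scale (adjusted p 1.01e-08, edgeR). Its close relative Gsk3a, with a shared substrate range, held 148 to 163 CPM over all day 9 libraries and 97.8 to 156 over all day 21 libraries, so the days overlapped. Gsk3a fell by 0.40 with vector and PBS and by 0.36 with upACSS2 and PBS, and its values after hAD-tau, -0.23 (adjusted p 0.162, edgeR) and -0.16 (adjusted p 0.340), did not pass.

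Cdk5r1, which encodes the activator that CDK5 needs, moved more than Cdk5 itself. Cdk5r1 held 366, 380 and 392 CPM with vector and PBS on day 9 and 273, 196 and 161 on day 21, and the days did not overlap. It fell by 0.85, 0.67, 0.62 and 0.54 on the log2 scale in the 4 conditions. Cdk5 held 94.9 to 116 CPM over the 12 day 9 libraries and 79.1 to 107 over the 12 day 21 libraries. It fell by 0.23 with vector and PBS and by 0.21 with upACSS2 and hAD-tau, and its values in the other 2 conditions were -0.04 (adjusted p 0.736, edgeR) and -0.10 (adjusted p 0.355). Mark1, a kinase that detaches tau from microtubules, held 113 to 122 CPM on day 9 and 65.9 to 95.6 on day 21 and fell by 0.61, 0.50, 0.52 and 0.41.

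Calls on Cdk5, Gsk3a and Map1a rest on few libraries or on the fit. In the vector and PBS comparison, Cdk5 lost its call without day 21 replicate 3 (adjusted p 0.132) or day 9 replicate 2 (0.110). Gsk3a lost it without day 21 replicate 2 (0.105) or replicate 3 (0.0697). The log2 fold change of Map1a in that comparison went from -0.61 to -0.40 without day 21 replicate 2, and that of Cdk5 from -0.23 to -0.15 without replicate 3. With the spread of only the 2 groups compared, Map1a (adjusted p 0.0522, edgeR), Gsk3a (0.0812) and Cdk5 (0.115) all missed the threshold there. Gsk3a with upACSS2 and PBS lost its call in 5 of 13 alternatives, without any 1 of its 6 libraries other than day 21 replicate 3 (adjusted p 0.0524 to 0.0922). Cdk5 with upACSS2 and hAD-tau lost it in 7 of 13, without any 1 of its 6 libraries other than day 21 replicate 2 (0.0746 to 0.109), without the filter on low counts (0.0685) and with limma's voom (0.0582). Without the 3 libraries with the most Rn45s, an alternative chosen after seeing the data, 10, 8, 8 and 8 genes were lower, as before, with Mapt at log2 fold changes of -2.52, -2.39, -2.54 and -2.42.

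Marker levels of other cell types moved with the days. Summed over each list, all 6 astrocyte markers went from 1168 to 1623 CPM on day 9 to 2542 to 18908 on day 21, the 6 oligodendrocyte markers from 36.2 to 45.8 to 189 to 1249, and the 4 oligodendrocyte precursor markers from 157 to 297 to 809 to 1650. On day 9, at most 2 oligodendrocyte markers were at 0 in a library, and no astrocyte marker was. The 7 neuron markers summed to 3317 to 3884 CPM on day 9 and 3541 to 6634 on day 21, so the neuron list did not fall with Mapt. The part of these cells in the result was not tested. In bulk libraries, fewer cells of a type and less RNA per cell cannot be told apart.

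Other genes of the tau and microtubule pathway were read from 5 lists, 98 genes in all, chosen with earlier results of these data known. Of 26 other tau kinases and activators, 14 fell and 1 rose on day 21 with vector and PBS, where 27.1% of all genes tested were called lower and 30.6% higher. The share called higher was 27.7%, 28.5% and 27.2% in the other 3 conditions, beside the shares called lower given above. Mapk8, a stress kinase of the JNK family, fell by 0.91, Csnk1e, a casein kinase, by 0.85, Camk2b, a calcium-dependent kinase, by 0.68 and Mapk10, a neuronal JNK, by 0.56. In the other 3 conditions 11, 12 and 9 of the 26 fell and 2, 3 and 6 rose. Of 17 tau phosphatases and their regulators, 11 fell and 1 rose with vector and PBS, among them Ppp2r2c, a regulatory subunit of protein phosphatase 2A, which fell by 0.63, the scaffold subunit Ppp2r1a by 0.44, the methyltransferase Lcmt1 by 0.37 and the catalytic subunit Ppp2cb by 0.23. In the other 3 conditions 6, 7 and 9 of the 17 fell and 2, 3 and 2 rose. The median log2 fold change of the kinase list was -0.32, -0.15, -0.26 and -0.23 in the 4 conditions and that of the phosphatase list -0.29, -0.15, -0.10 and -0.21, beside the medians over all genes given above, 0.01 to 0.05.

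Of 26 other microtubule-associated proteins, 19 fell and 1 rose with vector and PBS, with a median log2 fold change of -0.82. Dcx, the protein of migrating young neurons, fell by 2.98 on the log2 scale, Dpysl2, a growth cone protein that carries tubulin, by 1.45, and Stmn3, a stathmin, by 0.87. Map6d1 rose by 0.55. Of 14 tubulins, 7 fell and 3 rose, with a median of -0.21: Tubb3, the neuronal beta form, fell by 2.25, Tuba1a, the form of developing neurons, by 1.32 and Tuba1c by 1.05, while Tuba4a rose by 0.89. Of 15 tubulin modifying and severing enzymes, 10 fell and 3 rose, with a median of -0.53 and with Atat1, the tubulin acetyltransferase, lower by a log2 fold change of -1.27, Agtpbp1, a deglutamylase, at -0.73, Svbp, the partner of the detyrosinating enzymes, at -0.32, and the severing protein Fign at 1.75. These named genes are those of each list called in most comparisons, so they were chosen by their tests.

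On day 9, when replicates were closest to each other (biological coefficient of variation 0.0420, against 0.189 on day 21), the virus and hAD-tau could be compared over 14022 genes. With PBS, upACSS2 neurons held Map2 at 2781, 2655 and 2807 CPM and vector neurons at 2400, 2317 and 2441, with no overlap. Map2 rose by 0.20 (SE 0.037) on the log2 scale, with an adjusted p of 0.00290 by edgeR. Mapt was 2653, 2765 and 2676 CPM against 2429, 2542 and 2454, also with no overlap, and rose by 0.12 (SE 0.036, adjusted p 0.0400). These were 2 of 10 genes called, where 10.2% of all genes tested were. Of the 10, 5 had an unadjusted p under 0.05. Background shares, here and below, are of genes passing the adjusted threshold. They are no measure for counts at an unadjusted p, whose share over all genes is not given here. In hAD-tau neurons upACSS2 changed 0 of the 10 by edgeR and 0 by DESeq2 (background 0.692%), with 2 at an unadjusted p under 0.05.

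hAD-tau against PBS with vector raised Map2 and Cdk5r1. Map2 held 2606, 2817 and 2526 CPM with hAD-tau, all above the 3 PBS libraries given above, which made it higher by 0.15 (SE 0.037) on the log2 scale, with an adjusted p of 0.0274 by edgeR. Cdk5r1 held 418, 458 and 400 CPM against 366, 380 and 392, again all above, higher by 0.16 (SE 0.046, adjusted p 0.0457). That is 2 of 10 called against a background of 4.28%. With upACSS2, hAD-tau neurons held Mapt at 2374, 2450 and 2295 CPM against 2653, 2765 and 2676 with PBS, and Mapt fell by 0.19 (SE 0.036, adjusted p 0.0278), 1 of 10 called against 0.349%. The 4 day 9 comparisons share their groups, so their values are not independent of each other.

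Marker sums of some cell types moved with these day 9 comparisons. For upACSS2 against vector with PBS, the neuron and astrocyte sums overlapped, the oligodendrocyte sum was 36.2 to 37.4 CPM against 41.8 to 45.8, and the endothelial and mural sum was 23.7 to 25.9 against 19.0 to 21.2. For hAD-tau against PBS with vector, the neuron sum was 3571 to 3751 CPM against 3317 to 3563, the oligodendrocyte precursor sum 157 to 199 against 253 to 297 and the oligodendrocyte sum 38.7 to 39.7 against 41.8 to 45.8. For hAD-tau against PBS with upACSS2, the astrocyte sum was 1485 to 1623 CPM against 1168 to 1301, the oligodendrocyte precursor sum 185 to 223 against 241 to 267 and the oligodendrocyte sum 38.7 to 40.0 against 36.2 to 37.4, while the neuron sums overlapped. Except for the sums named as overlapping, the groups lay apart, and the part of these cells in the calls on Mapt, Map2 and Cdk5r1 was not tested.

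The test of the difference itself, whether hAD-tau acted otherwise with upACSS2 than with vector, called 0 of the 10 by edgeR and 2 by DESeq2. The background was 0.663% by edgeR, or 93 of 14022 genes, and DESeq2 called 319 of them. Mapt had an interaction of -0.21 (SE 0.051, adjusted p 0.0546 by edgeR and 0.0146 by DESeq2) and Map2 of -0.20 (adjusted p 0.0630 by edgeR and 0.0251 by DESeq2). An unadjusted p under 0.05 by edgeR was held by 7 of the 10, a count with no share over all genes beside it. Of the pathway lists, Dpysl2 passed it, at -0.70 (adjusted p 0.000948, edgeR), having risen by 0.39 with hAD-tau and vector and fallen by 0.31 with hAD-tau and upACSS2. Among list genes, upACSS2 with PBS raised the kinases Camk2a and Mapk10, 4 microtubule-associated proteins (Map6d1, Dcx, Mapre3 and Dpysl2, the last by 0.38), Tuba1a, Tubb3 and Atat1, and lowered Svbp and Fignl1.

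The day 9 calls on Mapt, Map2 and Cdk5r1 are of small size and depend on the libraries and on the fit. Mapt with upACSS2 and PBS kept its call when day 9 vector replicate 2 was left out and lost it without any 1 of the other 5 libraries, with adjusted p from 0.0689 to 0.177. Mapt under hAD-tau and upACSS2 lost its call without any 1 of its 6 libraries (0.0549 to 0.152). Map2 and Cdk5r1 under hAD-tau with vector kept theirs only without vector PBS replicate 3 or hAD-tau replicate 3, and without hAD-tau replicate 2 their log2 fold changes were 0.10 and 0.11. Map2 with upACSS2 and PBS kept its call without any 1 library. When the spread was estimated over all 24 unstimulated libraries, none of the 5 calls passed.

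On day 21 no gene of the 10 was called between viruses or between hAD-tau and PBS in unstimulated neurons, by edgeR or by DESeq2. Over all 14639 genes the share called was 0.0137% for upACSS2 against vector with PBS, 0.0273% for the same with hAD-tau, and 0% for both hAD-tau comparisons and for the interaction. Gsk3b with PBS was the nearest, at 258, 220 and 283 CPM with upACSS2 against 216, 195 and 180 with vector. Its groups did not overlap, and its log2 fold change was 0.36 (SE 0.122, p 0.0129, adjusted p 0.218, edgeR), the only unadjusted p under 0.05 in these 5 tests.

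In stimulated neurons on day 21, Map1a differed between the viruses after hAD-tau. It held 956, 837 and 825 CPM with upACSS2 against 597, 648 and 708 with vector, with no overlap, and Map1a was higher by 0.42 (SE 0.084) on the log2 scale, with an adjusted p of 0.0425 by edgeR. This was 1 of 10 called, with a background of 0.937%, and 3 had an unadjusted p under 0.05. Map2 held 1775, 1484 and 1527 CPM against 1234, 1371 and 1315, a log2 fold change of 0.29 (adjusted p 0.0922 by edgeR and 0.0137 by DESeq2). DESeq2 called 966 of 14939 genes in this comparison. Map1b was at 0.25 (adjusted p 0.149, edgeR). With PBS the Map1a levels were 783, 795 and 857 CPM with upACSS2 and 768, 751 and 756 with vector, and 0 of 10 genes were called (background 0.208%; 0 by DESeq2, 0 at an unadjusted p under 0.05). The interaction for Map1a was 0.32 (adjusted p 0.275, edgeR), so the virus effects with hAD-tau and with PBS were not shown to differ.

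The Map1a call was lost with the spread of only the 2 groups compared (adjusted p 0.0979) and without any 1 library other than vector replicate 2 (0.0776 to 0.170 in the other 5 cases). With replicate number as a block, 399 genes were called in place of 140, and Map1a was still the 1 of the 10 (adjusted p 0.0359). Astrocyte markers summed to 3594, 3339 and 1504 CPM in the 3 stimulated vector and hAD-tau libraries and to 4039 to 8595 in the other 9, so this group also stood lowest in that list, and its part in the result was not tested. Among list genes, Mapk3, a MAP kinase, fell by 0.45 in the same comparison (adjusted p 0.0368, edgeR).

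hAD-tau against PBS in stimulated neurons changed 0 of the 10 by edgeR, either with vector (background 3.02%) or with upACSS2 (background 0.208%). An unadjusted p under 0.05 by edgeR was held by 4 with vector and 1 with upACSS2. DESeq2 called 1 of the 10 with vector, where it called 1534 of 14939 genes in all. With upACSS2 it called 0 of the 10. With vector, Map1b held 1228, 1408 and 1412 CPM after hAD-tau and 1692, 1566 and 1764 after PBS, with no overlap, a log2 fold change of -0.31 (adjusted p 0.0728, edgeR; 0.0190 by DESeq2). Cdk5r1 went the other way, at 266, 261 and 345 CPM against 233, 222 and 242, a log2 fold change of 0.32 (adjusted p 0.101, edgeR). Mapk8 of the kinase list rose by 0.45 in that comparison (adjusted p 0.0415). With replicate number as a block, 1069 genes were called in place of 451 in the vector comparison, and still 0 of the 10. Astrocyte markers summed to 1504 to 3594 CPM after hAD-tau and 5020 to 8595 after PBS in these vector neurons, with no overlap. The microglia, endothelial and mural, fibroblast and meningeal, and choroid plexus sums also lay apart, each at 32.1 CPM or less. The neuron, oligodendrocyte and oligodendrocyte precursor sums overlapped. The part of these cells in the values of Map1b, Cdk5r1 and Mapk8 was not tested.

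In the culture without virus, hAD-tau and PBS were compared in 4 and 3 libraries with the widest spread of the neuron sets (biological coefficient of variation 0.279). Map1b held 415, 483, 420 and 341 CPM after hAD-tau and 668, 578 and 808 after PBS. All hAD-tau libraries lay below all PBS libraries, with a log2 fold change of -0.72 (SE 0.168, p 0.00286, adjusted p 0.306, edgeR; adjusted p 0.0107 by DESeq2). Of 16341 genes edgeR called 0 (0%), so 0 of the 10, and DESeq2 called 326, with Map1b the 1 gene of the 10. At an unadjusted p under 0.05 there were 4: Map1b, Cdk5r1, Cdk5 and Gsk3b, all lower after hAD-tau. Mapt held 317, 357, 347 and 391 CPM against 373, 348 and 437, and its groups overlapped.

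The third PBS library of that culture stood apart. Its astrocyte markers summed to 1332 CPM against 6431 and 7710 in the other PBS libraries and 5465 to 11209 after hAD-tau, and its neuron markers to 4943 against 2554 and 2284 and 1382 to 2256. Cdk5r1 held 277 CPM there, against 148 and 127 in the other PBS libraries and 105 to 123 after hAD-tau. Without that library the log2 fold change of Cdk5r1 went from -0.68 to -0.26, and that of Map1b from -0.72 to -0.59 (adjusted p 0.237, edgeR). The whole groups also differed in marker sums. Neuron markers summed to 2284 to 4943 CPM after PBS and 1382 to 2256 after hAD-tau. Oligodendrocyte precursor markers summed to 90.7 to 2027 and 2297 to 3870. Neither list overlapped between the groups, and the other lists did. The part of these cells in the lower Map1b, Cdk5r1, Cdk5 and Gsk3b was not tested.

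No gene of the 10 differed between upACSS2 and vector in any mouse comparison, by edgeR or by DESeq2. At 22-23 months the log2 fold changes lay between -0.07 and 0.11, at 10 months between -0.12 and 0.25, in PS19 mice at 1 month between -0.05 and 0.24 and at 6 months between -0.28 and 0.06. The background in these 4 comparisons was 0% of all genes by edgeR, and 1, 1, 0 and 0 of the 10 had an unadjusted p under 0.05. Mapt itself held 452 to 522 CPM (median 488) in the 12 vector mice of 22-23 months and 457 to 549 (median 504) in the 12 upACSS2 mice. Its log2 fold change there was 0.04, with a 95% interval from -0.03 to 0.10, the narrowest of the 6 mouse comparisons for Mapt, and the groups overlapped almost wholly. At 10 months Mapt held 489, 510, 488, 581 and 475 CPM with vector and 438 to 544 (median 498) with upACSS2, a log2 fold change of -0.05 (95% interval -0.20 to 0.11). The mice of 22-23 months were not uniform by replicate number. Over both viruses, Cdk5r1 held 213 to 242 CPM in replicates 1 to 3 and 244 to 301 in replicates 4 to 12, with no overlap. The ranges of the other genes of the 10 overlapped between these sets, and the cause was not tested. How many of all genes lay apart between these sets is not given here, so the gap is not shown to be particular to Cdk5r1.

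**Figure D3:**
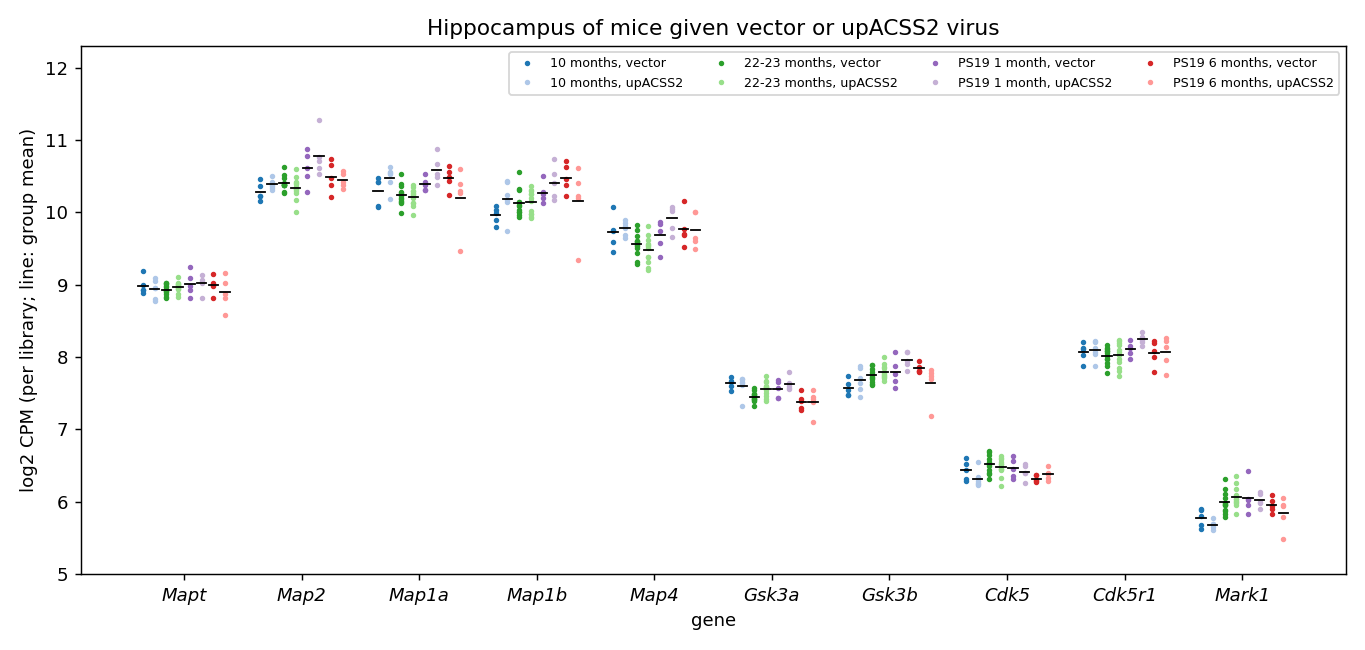
Level of each gene in the 55 mouse libraries, as log2 CPM, with 1 column of points for each of the 8 groups and a line at the group mean. The vector and upACSS2 columns overlap for every gene, and 1 PS19 upACSS2 library at 6 months lies low for Map1a, Map1b and Gsk3b.

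The 2 genes with an unadjusted p under 0.05 for the virus were Gsk3a at 22-23 months and Map1b at 10 months. Gsk3a held 169 to 213 CPM (median 191) with upACSS2 and 160 to 190 (median 175) with vector, a log2 fold change of 0.11 (95% interval 0.04 to 0.18, adjusted p 0.832, edgeR). Map1b held 859 to 1383 CPM (median 1181) with upACSS2 and 947, 887, 1089, 1044 and 1018 with vector, a log2 fold change of 0.25 (95% interval 0.03 to 0.46, adjusted p 0.548). Both pairs of groups overlapped.

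In PS19 mice Mapt held 546, 485, 503, 604 and 453 CPM with vector at 1 month and 511, 566, 523, 449 and 508 at 6 months. With upACSS2 it held 520, 527, 453, 534 and 565 CPM at 1 month and 522, 469, 385, 451 and 572 at 6 months. These 20 libraries, at 385 to 604 CPM, overlapped with the 438 to 581 CPM of the 35 mice without the transgene. The tables were normalised separately and the mice differ in age, so no test was made between them. Between the time points 0 of the 10 passed edgeR's test, either with vector (background 7.46%; 2 at an unadjusted p under 0.05; 0 by DESeq2) or with upACSS2 (background 0.0442%; 4 at an unadjusted p under 0.05; 0 by DESeq2). The interaction of virus and time called 0 of the 10 by either tool (background 0%), with 2 at an unadjusted p under 0.05. Of the phosphatase list, the catalytic subunit Ppp1ca of protein phosphatase 1 fell by 0.39 between 1 and 6 months with vector. The protein phosphatase 2A subunits Ppp2r2c, Ppp2cb and Ppp2ca fell by 0.36, 0.32 and 0.31, all on the log2 scale.

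Prnp, the prion gene whose promoter drives the transgene, was read beside Mapt because the transgene's vector keeps untranslated Prnp exons. It held 1616 to 2128 CPM in 19 of the 20 PS19 libraries and 744 to 1039 CPM in the 35 mice without the transgene. The exception was the third library of the 1-month upACSS2 group, labelled PS19, at 936 CPM, within the range of the other mice. That library also held the highest Map2 of all mice, 2486 CPM, and the highest Map1a, 1872 CPM, while its Mapt, 453 CPM, was the lowest of its group. Whether the Prnp counts come from the transgene was not tested. Thus the gene counts separate 19 PS19 libraries from the other mice by Prnp and do not separate them by Mapt.

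**Figure D4:**
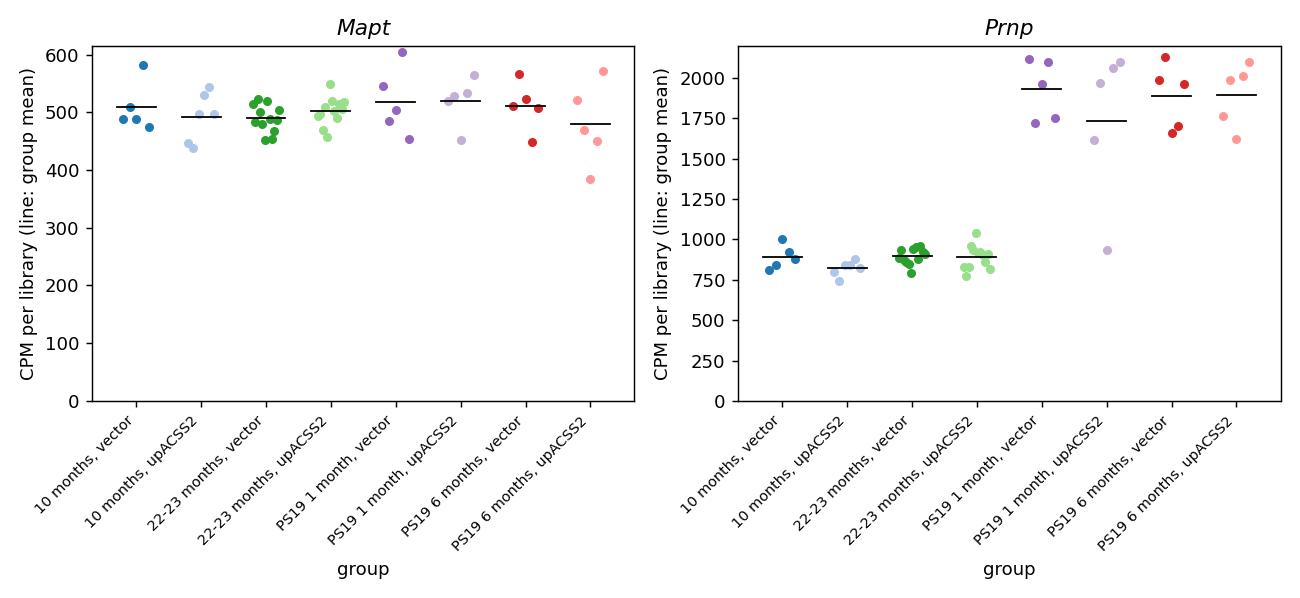
Mapt and Prnp in each mouse library, as CPM, with a line at the group mean. The ranges of Mapt overlap between all 8 groups, while Prnp lies at 1616 CPM or more in 19 of 20 PS19 libraries and at 1039 CPM or less in all other mice and in 1 PS19 library.

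Single PS19 libraries moved these values. Without the third 1-month upACSS2 library, the log2 fold change of Map2 for the virus at 1 month went from 0.17 to 0.02, and that of Map2 between 1 and 6 months with upACSS2 from -0.36 to -0.21. At 6 months the third upACSS2 library held Map1a at 707 CPM, Map1b at 646, Gsk3b at 145 and Mark1 at 44.5, the lowest of all PS19 libraries for each. Without it the log2 fold change of Map1b for the virus at 6 months went from -0.28 to -0.13 and that of Map1a from -0.23 to -0.09. That library had an Acss2 level of 44.9 CPM, inside the vector range. Mitochondrial genes took 7.62% of its counts and 6.78% in the third 1-month upACSS2 library, the highest shares of the 20 PS19 libraries, against 3.48 to 5.96% in the other 18. The part of this share in their values was not tested.

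Levels can be compared between genes only per length, and CPM per kilobase of annotated exon was used for this. With vector and PBS on day 9 the order was Mapt at 329 ± 7.90 (SD, n = 3), Map1b at 269.8, Map2 at 145, Cdk5r1 at 91.1, Map1a at 65.1, Gsk3a at 53.9, Cdk5 at 49.9, Map4 at 48.8, Gsk3b at 44.1 and Mark1 at 27.3. Of these neighbours in the order, Cdk5 and Map4 overlapped. On day 21 the order was Map2 at 67.6, Map1b at 65.6, Mapt at 55.9, Cdk5r1 at 50.5, Map1a at 42.8, Cdk5 at 42.5, Gsk3a at 40.98, Map4 at 33.1, Gsk3b at 20.03 and Mark1 at 17.9. Every pair of neighbours from Map2 down to Map4 overlapped between libraries, so the lead of Mapt on day 9 was gone and no other gene stood clear. In the vector mice Map1a had the highest mean, at 104 per kilobase at 10 months, 99.6 at 22-23 months and 117 in PS19 mice at 6 months. Map1a lay clear of the next gene at 10 months and overlapped it in the other 2 groups. Mapt was the fourth by its mean in all 3, at 67.5, 65.0 and 67.9, and overlapped both of its neighbours in each. Mark1 was last and lay clear of Gsk3b in all 3.

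Ratios of counts within a library do not depend on its depth. Map1a to Map1b, the mature form over the growth form, was 0.172 to 0.193 in the 12 day 9 libraries and 0.408 to 0.658 in the 12 unstimulated day 21 libraries. It was 0.428 to 0.558 in stimulated neurons, 0.610 to 1.41 in the culture without virus, and 0.852 to 1.62 over the 3 sets of mice. The ratio was thus lowest on day 9, with no overlap with any other set. Mapt to Map2 was 0.849 to 1.10 on day 9 and 0.182 to 0.503 in all other sets, again with no overlap. Gsk3b to Gsk3a was 2.65 to 3.51 on day 9, 1.41 to 2.18 on day 21 unstimulated, 1.68 to 2.80 on day 21 stimulated, 1.37 to 2.03 in the culture without virus and 0.880 to 1.46 in the mice. The stimulated libraries overlapped with day 9, and the other sets lay below it. Cdk5r1 to Cdk5 was 3.29 to 4.83 on day 9, 1.91 to 3.30 on day 21 unstimulated, 2.53 to 3.84 on day 21 stimulated, 1.56 to 2.85 in the culture without virus and 2.39 to 4.25 in the mice. All of these sets but the culture without virus overlapped with day 9. These ratios are descriptions across separate experiments, with no test.

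**Figure D5:**
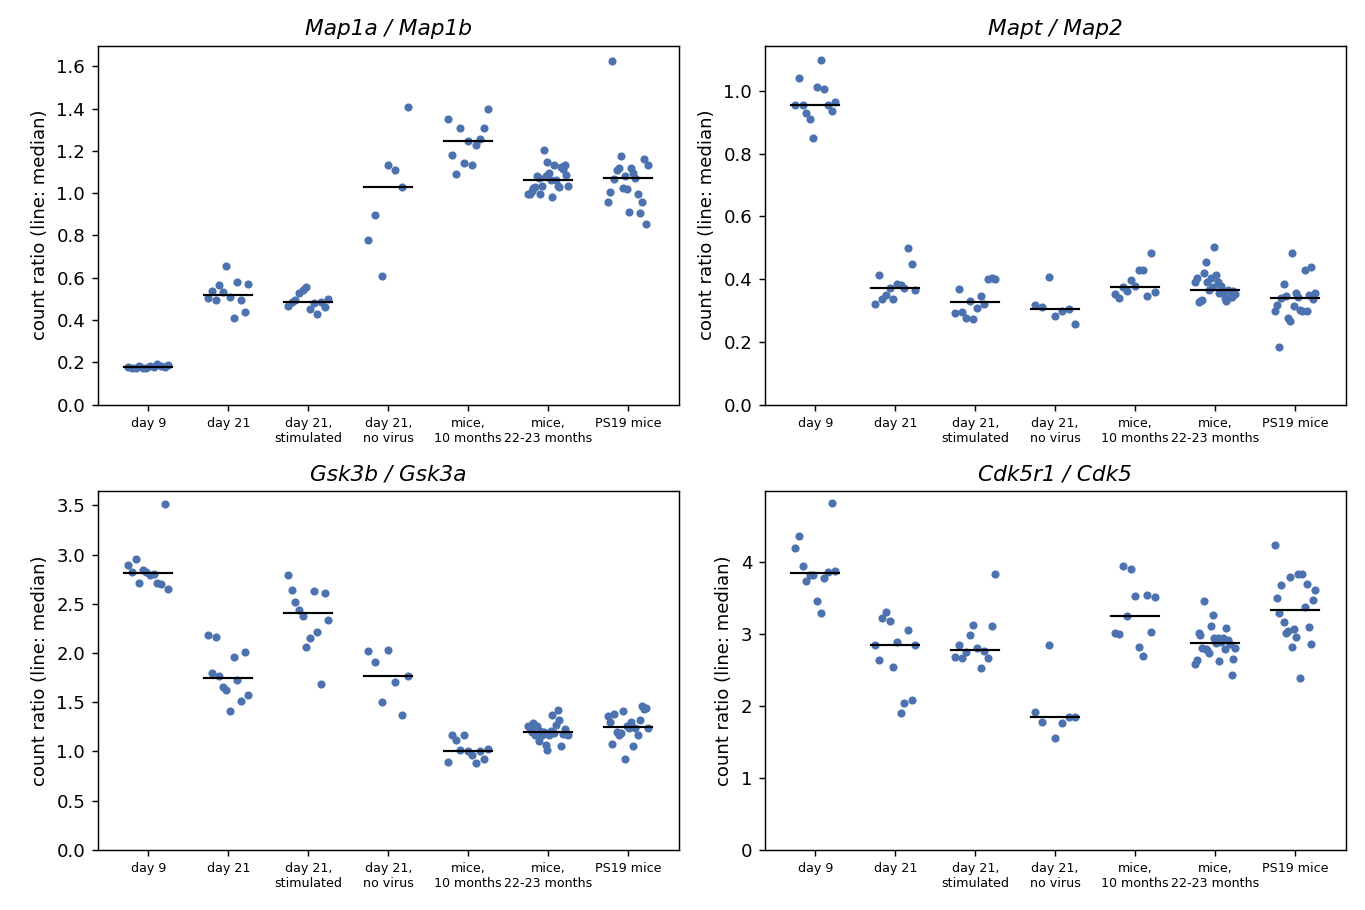
Ratio of counts within each library for 4 pairs of genes, by set of libraries, with a line at the median. Map1a to Map1b is lowest and Mapt to Map2 highest on day 9, each with no overlap with the other sets, while Cdk5r1 to Cdk5 overlaps between day 9 and the mice.

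Across all 98 libraries, with each table centred on its own mean, the genes most like each of the 10 in level were found among 12682 genes by Pearson's r, given as a description. The unstimulated neuron libraries, centred together, hold both days, so the day 9 to day 21 difference weighs heavily in r. Mapt was most like 4931428F04Rik (r 0.972), Dpysl3 (0.971) and Klf7 (0.969), and Map1b most like Trp53bp1 (0.954), Plxna2 (0.951) and Tcaf1 (0.949). Gsk3b had Map1b itself as its nearest gene (0.942), and Mapt and Map1b were at 0.920. Cdk5r1 was nearest to Ywhaz (0.913) and App (0.912), Map2 to Apc (0.922), Map1a to Mtor (0.879), Mark1 to Stx1a (0.878), Gsk3a to Apba2 (0.870), Map4 to Atp2b1 (0.837) and Cdk5 to Chchd6 (0.816). Mapt and Map1a were at 0.483.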

How the data were processed

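Libraries were made from total RNA with a New England Biolabs kit, per the labels' protocols, and the authors deposited raw counts of reads for each gene symbol in 6 tables, 1 for each experiment. The submitters' processing notes name mm10, STAR, featureCounts, HTSeq and DESeq2, with no roles or versions. Strand and annotation are not given in the sources used here. Groups come from sample titles, since the treatment entry goes against the title for several groups. All 98 columns were matched, and 0 were left unused. A blank gene name held 6.13 to 8.74% of the culture table's counts and was left out.

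The main test was edgeR's quasi-likelihood test (edgeR 4.0.16, R 4.3.3, limma 3.58.1) on each table after its filter on low counts and TMM scaling, with Benjamini-Hochberg adjustment over all genes tested and a threshold of 0.05. Each table was fitted with all its groups, except that day 9 and day 21 were fitted apart for comparisons within a day and together for comparisons between days. All 10 genes passed the filter in every fit. log2 CPM used a prior count of 2. Tables and figures were made with Python 3.11.15, pandas 2.3.3 and matplotlib 3.10.9. The fits were tested on simulated data. Alternatives were DESeq2 1.42.0, its RLE size factors, no filter, other sets of libraries in a fit, a replicate block, voom with quality weights and leaving out each library.

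The 10 genes and the 5 lists were chosen with earlier results of these data known. The rule for other genes named took the 3 genes most like each member by Pearson's r and, of each list, the 4 genes called in most comparisons; other list genes called in the comparisons within a day or in mice are named as examples, and some are not reported here. Replicates with the same number moved together in 3 comparisons, with every pair's r over 0.1: hAD-tau against PBS in the culture without virus (0.220 to 0.394), and in stimulated neurons upACSS2 against vector with hAD-tau (0.111 to 0.359) and hAD-tau against PBS with vector (0.123 to 0.326).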

Additional observations from a re-analysis of the deposited data

Results flagged for a closer look

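In groups of 4 to 10 libraries, a library was picked out where its gap to the nearest other library was large for the range of its group (Dixon's ratio). Of 70 gene and group pairs checked, 4 were picked out, where chance gives about 1 in 20, or 3.5. In the 10-month upACSS2 group, replicate 2 was the lowest for Gsk3a, at a log2 CPM of 7.33 against 7.61 to 7.70 in the other 5, and the highest for Cdk5, at 6.55 against 6.23 to 6.35. In the 6-month PS19 upACSS2 group, replicate 3 was the lowest for Map1a, at 9.47 against 10.27 to 10.60 in the other 4, and for Gsk3b, at 7.18 against 7.69 to 7.82. Its neuron markers summed to 4632 CPM and its oligodendrocyte markers to 7111, the highest of the 20 PS19 libraries for the latter.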

How the results depend on the processing

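Over 358 alternative counts of the 10 genes called, 325 stayed equal to the main count or within 1.5 times of it and 33 moved further. Of the 34 falls from day 9 to day 21, 29 passed under every alternative run, and over 442 alternative values 19 missed the threshold and 0 changed sign. The 19 were of Map1a, Gsk3a and Cdk5. Small day 9 differences and the wide spread of the day 21 and culture libraries limit the rest: a gene that missed the threshold there was not shown to be equal.

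Numbers of the 10 genes called that moved were as follows, and the cause was not tested unless the setting gives it. With DESeq2, 1 gene was called in the culture without virus, 2 for the day 9 interaction, 2 for upACSS2 against vector in stimulated neurons with hAD-tau and 1 for hAD-tau in stimulated vector neurons, against 0, 0, 1 and 0. Over all genes tested, DESeq2 called 326 of 16341, 319 of 14022, 966 of 14939 and 1534 of 14939 in these comparisons. Without the filter on low counts, 4 were called for upACSS2 with PBS on day 9 and 4 for the day 9 interaction, against 2 and 0. For that interaction, 794 genes were called in all without the filter. With the spread of all 24 unstimulated libraries, which includes the more variable day 21 libraries, 0 were called in each day 9 comparison, and 1, Gsk3b, for upACSS2 with PBS on day 21 (adjusted p 0.0265, edgeR). In that day 21 comparison 1576 of 14863 genes were called in all. With the spread of only the groups compared, 0 were called for hAD-tau with vector on day 9 and 0 for upACSS2 with hAD-tau in stimulated neurons.

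Leaving out 1 library at a time gave 1 to 2 genes for upACSS2 with PBS on day 9, 0 to 3 for hAD-tau with vector, 0 to 0 for hAD-tau with upACSS2 and 0 to 4 for the interaction. It gave 0 to 1 for upACSS2 with hAD-tau in stimulated neurons. Between the days it gave 8 to 10, 8 to 9, 7 to 8 and 7 to 8. In the 10-month and PS19 mice it gave 0 to 0. It was not run for the groups of 12 libraries at 22-23 months.

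With the replicate number as a block, 1 of the 10 was called for the day 9 interaction, Mapt (adjusted p 0.0290, edgeR), against 0, where same-numbered replicates did not move together. Over all genes, 142 were called there in place of 93. The block changed no other count of the 10.

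Counts over all genes moved more. DESeq2 against edgeR called 326 against 0 in the culture without virus, 81 against 49 for hAD-tau with upACSS2 on day 9 and 319 against 93 for its interaction. On day 21 it called 374 against 2, 126 against 4, 3 against 0, 11 against 0 and 3 against 0, and in stimulated neurons 422 against 31, 966 against 140, 1534 against 451, 453 against 31 and 128 against 0. In mice it called 1 against 0 at 22-23 months, 4 against 0 at 10 months, and in PS19 mice 1 against 0 and 135 against 0 for the virus, 1901 against 1182 and 176 against 7 for time and 3 against 0 for their interaction. With all 24 unstimulated libraries, 2, 1, 1, 0 and 0 genes were called on day 9 in place of 1437, 97, 600, 49 and 93, and on day 21 1576, 528, 29 and 8 in place of 2, 4, 0 and 0. Without the filter, 368, 1153, 201 and 794 were called on day 9 in place of 97, 600, 49 and 93, 51, 220 and 110 in stimulated neurons in place of 31, 140 and 31, and 656 in PS19 mice over time with vector in place of 1182. The block gave 142 in place of 93 for the day 9 interaction, 280 in place of 31 and 487 in place of 31 in stimulated neurons, 166 in place of 0 for their interaction, 782 in place of 1182 in PS19 mice over time with vector and 13 in place of 0 at 22-23 months. Only the groups compared gave 54 in place of 97, 257 in place of 600 and 125 in place of 49 on day 9, and 2, 21, 0 and 167 in place of 31, 140, 451 and 31 in stimulated neurons.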
